A study of Mus musculus with 4 samples.

Results

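The genes described here are 38 transcription factor genes that specify lineages other than the hepatocyte, such as Pax6 of the eye, Cdx2 of the intestine and Nkx2-1 of the thyroid and lung. They are 38 of 21884 protein-coding genes with a window, which was the gene body plus 2 kb upstream (mm10, GENCODE vM21). All 38 had a mean level of at least 2 CPM over the libraries, where CPM are counts scaled to a library total of 1000000. The members were selected on the same measurements that are given below, namely their counts in peaks, the length of the peaks that overlap their windows and the calling of promoter peaks in these libraries. Their changes are therefore a description, and no test is made of them.

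Single-nucleus ATAC-Seq (scATAC-Seq) reports open chromatin, because the Tn5 transposase inserts sequencing adapters where DNA is accessible and a droplet barcode marks the nucleus. Hepatocytes of C57BL/6J male mice, 10 to 12 weeks old, were isolated by collagenase perfusion of undamaged liver (PHx 0 h) and of regenerating liver taken 48, 72 and 96 h following partial hepatectomy (PHx), in which a share of the liver is cut away. The comparison addresses how hepatocyte chromatin changes as the liver regrows. Each time point had 1 library. That of 48 h came from 1 mouse, and no source used here says if animals were pooled for 72 and 96 h. The labels name no engineered allele, and time point, animal and library cannot be told apart.

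Nuclei with at least 1000 counts numbered 3977, 3892, 4256 and 3224 at 0, 48, 72 and 96 h. Depth fell along that order, from 136582768 counts at 0 h to 62000846, 24724883 and 14935507. Libraries shared between 27 and 60 barcodes per pair, at most 1.51% of nuclei. Peaks were called in each library on its own, so a level of 0 means that no peak was called in that window and sequence outside peaks is not counted. The weakest called peaks differed between the libraries: among peaks of at least 500 bp, the 5th percentile of density was 2.11, 2.23, 2.93 and 8.43 CPM per kb of peak at 0, 48, 72 and 96 h. The libraries of 0 and 48 h thus had nearly the same weakest peaks, whereas a window without a peak at 96 h could hold a density that was called in the other 3 libraries. All 10 hepatocyte markers had a peak in every library, and their summed level ranged from 4083 CPM at 72 h to 6233 CPM at 96 h.

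Developmental transcription factors of this kind act as switches of cell identity in the embryo. In adult tissues where they are not used, their CpG-rich promoters are commonly kept silent by Polycomb group complexes, which mark the whole gene with trimethylated histone H3 lysine residues, while the DNA stays largely unmethylated. Accessible chromatin at such a gene is not the same as its transcription.

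RefSeq promoters of 300 bases (250 before and 50 after the start, GRCm38.p6) were matched by symbol to 29 members (not Gata6, Mafa, Otx1, Tbx15, Sox17, Pax3, Tbx5, Cdx1 and Sim2). The median promoter had a GC content of 59.3% and a ratio of observed to expected CpG of 0.793, beside 57% and 0.602 over 16505 promoters, 1 per gene. A ratio of at least 0.6 together with a GC content of at least 50% was met by 18 of the 29, or 62.1%, and by 47.7% of all promoters. The promoters of 6 members are shown because their genes stand for the main patterns: no peak at 0 h (Cdx2, Six2), a short peak that became long (Nkx2-9), several peaks that became 1 long peak (Pax6), no gain (Lhx1) and no promoter peak in any library (Neurod1). They lie at chr5:147307200-147307499, chr17:85688205-85688504, chr12:56613235-56613534, chr2:105668646-105668945, chr11:84525485-84525784 and chr2:79456587-79456886, on the minus strand except for Pax6. Capitals mark CpG dinucleotides, which number 18, 37, 15, 18, 31 and 26 in that order.
Cdx2: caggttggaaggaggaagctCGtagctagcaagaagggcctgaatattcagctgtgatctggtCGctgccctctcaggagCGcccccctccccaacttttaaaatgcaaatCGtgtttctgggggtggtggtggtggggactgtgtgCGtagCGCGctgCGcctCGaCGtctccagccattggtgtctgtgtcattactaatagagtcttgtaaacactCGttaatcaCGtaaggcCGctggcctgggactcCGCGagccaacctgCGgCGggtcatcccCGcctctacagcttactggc
Six2: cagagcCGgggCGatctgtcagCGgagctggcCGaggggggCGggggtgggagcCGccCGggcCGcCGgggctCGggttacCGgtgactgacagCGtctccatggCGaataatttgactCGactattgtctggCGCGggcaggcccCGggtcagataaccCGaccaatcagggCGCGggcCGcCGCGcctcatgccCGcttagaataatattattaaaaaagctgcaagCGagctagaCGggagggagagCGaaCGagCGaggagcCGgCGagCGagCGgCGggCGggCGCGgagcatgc
Nkx2-9: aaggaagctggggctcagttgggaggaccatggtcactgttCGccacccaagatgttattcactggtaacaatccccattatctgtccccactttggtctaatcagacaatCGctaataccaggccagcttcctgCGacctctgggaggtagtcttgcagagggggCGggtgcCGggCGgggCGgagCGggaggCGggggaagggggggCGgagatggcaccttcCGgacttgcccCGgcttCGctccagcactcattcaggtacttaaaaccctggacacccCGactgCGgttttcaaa
Pax6: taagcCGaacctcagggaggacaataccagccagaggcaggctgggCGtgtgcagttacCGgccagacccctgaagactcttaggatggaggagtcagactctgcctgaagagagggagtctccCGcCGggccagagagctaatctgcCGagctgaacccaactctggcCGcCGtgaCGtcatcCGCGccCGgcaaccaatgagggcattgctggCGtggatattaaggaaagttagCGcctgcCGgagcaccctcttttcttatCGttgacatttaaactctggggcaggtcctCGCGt
Lhx1: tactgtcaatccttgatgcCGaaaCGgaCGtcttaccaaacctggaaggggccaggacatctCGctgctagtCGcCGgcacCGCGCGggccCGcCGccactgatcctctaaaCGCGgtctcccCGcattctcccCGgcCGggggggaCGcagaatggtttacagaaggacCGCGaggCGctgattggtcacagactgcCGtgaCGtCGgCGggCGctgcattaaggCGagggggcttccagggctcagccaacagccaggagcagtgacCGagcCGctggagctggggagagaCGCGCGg
Neurod1: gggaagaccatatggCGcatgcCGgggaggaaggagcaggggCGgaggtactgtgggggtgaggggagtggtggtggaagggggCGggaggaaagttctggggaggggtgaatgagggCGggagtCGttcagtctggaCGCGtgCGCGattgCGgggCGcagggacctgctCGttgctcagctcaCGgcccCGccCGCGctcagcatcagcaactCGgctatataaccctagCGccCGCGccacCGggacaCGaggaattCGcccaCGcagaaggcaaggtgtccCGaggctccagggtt

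The motif GGGCGG, the GC box, was found on either strand in 17 of the 29 promoters (58.6%) and in 48.2% of all promoters. CCAAT was present in 13 (44.8%, all 38.8%) and TATAAA in 3 (10.3%, all 12.9%). The CpG-rich run CGCGCG occurred in 7 (24.1%, all 16%), and the palindrome TGACGTCA, which cAMP-responsive factors can bind, in Pax6 and Foxd3 (6.9%, all 2.42%). These matches describe the letters only. Over all measured genes with a promoter sequence, 3.85% of the 25% richest in CpG were at least 2-fold higher at 48 h than at 0 h, against 9.36% of the 25% poorest in it.

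The 38 factors had higher levels in peaks at 48 and 72 h after PHx than in undamaged liver. Their summed level in peaks, counting each peak once, was 492.9 CPM at 0 h (95% counting interval 487.6 to 498.2), 1032 CPM at 48 h (1021 to 1044), 1328 CPM at 72 h (1308 to 1349) and 721.8 CPM at 96 h (702.6 to 741.3). These intervals cover counting error only. Higher CPM values than at 0 h were seen for 36 of the 38 at 48 and at 72 h (background 48.6% and 51%), and the exceptions were Lhx1 and Gata6 both times. At 96 h 26 members were above 0 h (54.6%). The level was highest at 72 h for 27 members, at 48 h for 7, at 96 h for 3 and at 0 h for Lhx1 alone. The share of all genes that were highest at each time was not computed, so these counts describe the members only.

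On the log2(CPM + 1) scale, 23 members were at least 2-fold higher at 48 h than at 0 h, while 6.71% of all 16385 genes measured were. At 72 h 30 members passed this fold, with a background of 11.8%, and at 96 h 9 members, with a background of 5.46%. Divided by covered kb, for the members with a peak in both libraries, the counts were 0, 3 and 30, so that the calls depend on covered length and the order of the times differs. The share of all genes past this fold per covered kb was not computed. Density at 96 h was higher in general: over all peaks of at least 500 bp its median was 4.87 CPM per kb at 0 h and 15.3 at 96 h. The 23 genes of 48 h were all among the 30 of 72 h. In the other direction no member was at least 2-fold lower at 48 h (background 1.82%) or 72 h (5.76%), and at 96 h only Sox2 was (9.88%), which had no peak there. The median log2 ratio to 0 h over the members was 1.24, 1.63 and 0.52 at 48, 72 and 96 h, and over all measured genes −0.02, 0.01 and 0.07. Among the members with a peak in both libraries, 17 of 32, 24 of 32 and 8 of 31 passed the fold, with medians of 1.09, 1.45 and 0.58. The share and the median over all genes with a peak in both libraries were not computed. All 3 comparisons share the 0 h library. Because the members were chosen on these values, the counts say nothing beyond which of them moved and how far.

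**Figure D1:**
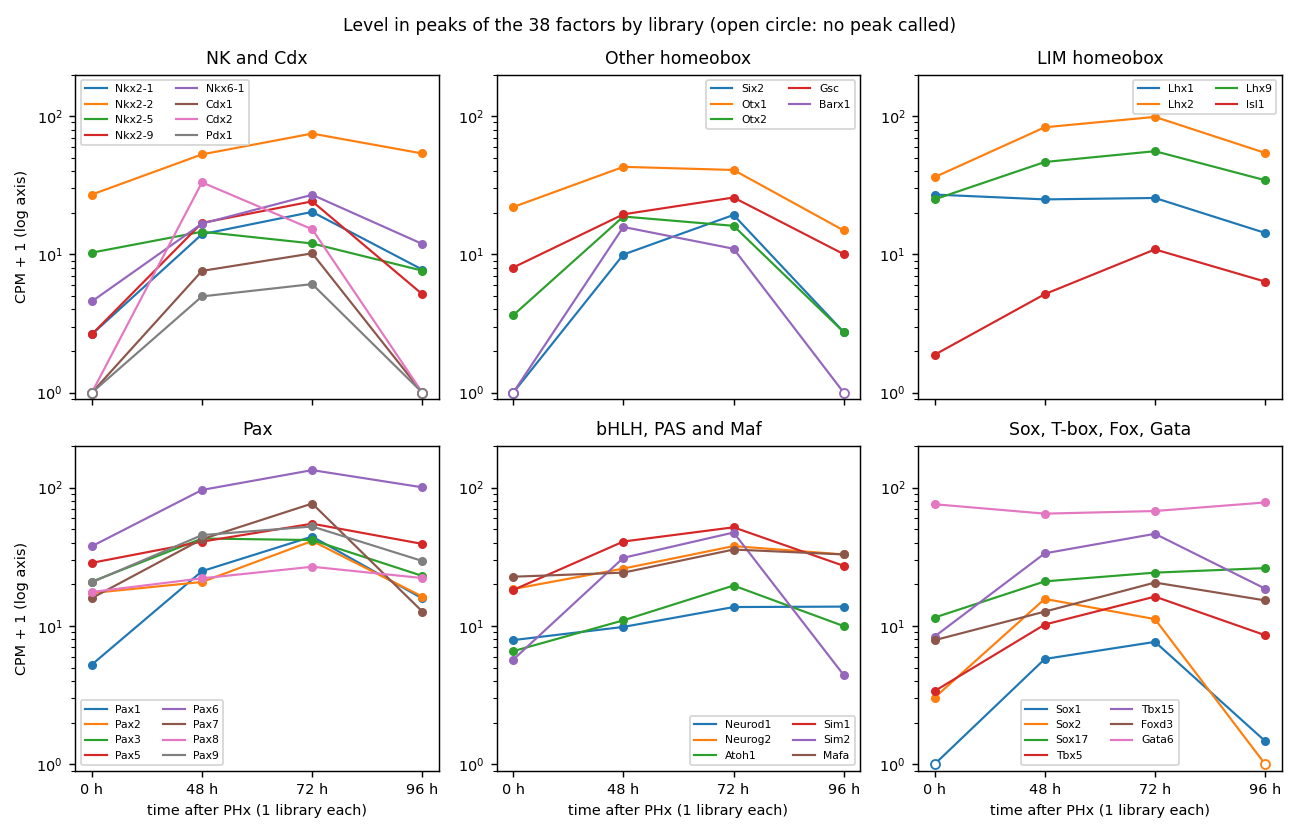
Level in peaks of each factor (CPM + 1, log axis) in the libraries of 0, 48, 72 and 96 h, grouped by protein family; each point is 1 library, and an open circle marks a window with no peak called. Most lines rise from 0 h to 48 and 72 h and fall again at 96 h, while Gata6 stays between 63.9 and 77.2 CPM.

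Peaks that overlap the windows covered more sequence at 48 and 72 h than at 0 h, and less at 96 h although the summed level was higher. Whole peaks were counted and measured, including parts outside a window. At 48 h, for example, the peaks of Nkx2-9 covered 4791 bp, while its window has 3896 bp. Covered peak length summed to 118.7 kb over the members at 0 h, 264.9 kb at 48 h, 253.1 kb at 72 h and 60.61 kb at 96 h. Among the 32 members with a peak in both libraries, the covered length at 48 h was at least 2-fold longer for 16 (background 9.92% of genes with a peak in both) and at least 2-fold shorter for 0 (1.49%). At 72 h it was at least 2-fold longer for 14 (7.47%) and shorter for 0 (8.21%). At 96 h it was longer for 0 of 31 (0.132%) and shorter for 16 (55.3%), so that less covered sequence was general in that library. The median ratio of length to 0 h was 2.01, 1.83 and 0.498 at 48, 72 and 96 h for the members and 1.12, 0.912 and 0.471 for all genes.

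Density within the called peaks, which cannot fall below what the peak caller accepts, was nearer to that of 0 h at 48 h than the levels were. The summed level divided by the summed length was 4.15, 3.9, 5.25 and 11.9 CPM per covered kb at 0, 48, 72 and 96 h. In the median member with a peak in both, CPM per covered kb was 1.21 times that of 0 h at 48 h, 1.61 times at 72 h and 3.25 times at 96 h. Over all peaks of at least 500 bp the median density was 4.87, 4.36, 5.99 and 15.3 CPM per kb at 0, 48, 72 and 96 h, so that higher density at 96 h was general in that library. Members differed in density: the level of Sox17 at 48 h was 1.9 times that of 0 h on 1.14 times the length, and that of Foxd3 1.7 times on 1.08 times the length, while for Nkx2-9 the values were 9.69 and 7.95. Pax2 went the other way, with 1.22 times the level on 2.26 times the length, the lowest ratio of CPM per covered kb at 48 h (0.539). Where a peak at 48 h could be paired with 1 peak of 0 h whose length differed by at most 10%, which was so for 14 members and leaves out peaks that lengthened, the median log2 ratio was 0.08, beside −0.14 over 11313 genes with such pairs. At 72 h the same comparison gave 0.56 for 13 members and 0.22 over 8473 genes, and at 96 h 1.23 for 5 members and 1.30 over 909 genes.

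**Figure D2:**
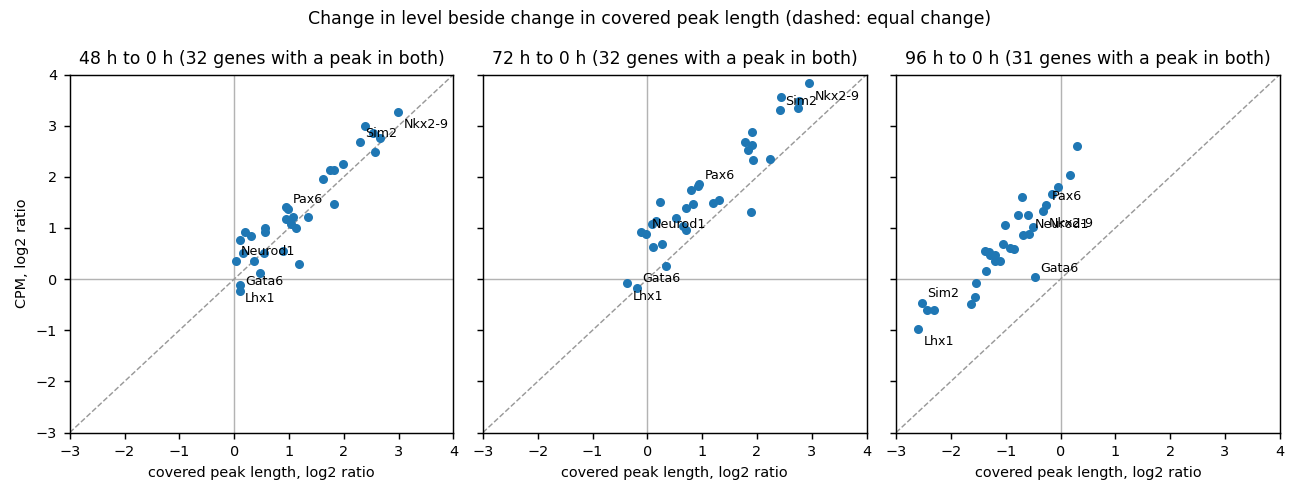
Log2 ratio of CPM against log2 ratio of covered peak length for each factor with a peak in both libraries (32, 32 and 31 genes at 48, 72 and 96 h to 0 h); each point is 1 gene and the dashed line marks equal change. At 48 h the points lie on both sides of the dashed line, with CPM per covered kb from 0.539 to 1.66 times that of 0 h. At 96 h they lie above the line, mostly with less covered length.

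Promoter peaks, called within 1000 bp of an annotated transcription start site, were present for 30 members at 0 h (background 69.1% of all genes), 37 at 48 h (73.2%), 37 at 72 h (73.6%) and 27 at 96 h (65.4%). In every library 26 members had a promoter peak (the share over all genes was not computed for this or for the patterns named next). Cdx2, Cdx1, Pdx1, Pax7, Sox1 and Barx1 had one at 48 and 72 h alone, and Six2 lacked one only at 0 h. Nkx2-9, Nkx2-5, Pax2 and Sox2 lacked one only at 96 h, although the peak of Nkx2-9 began 1001 bp from its start, and a limit of 2000 bp gave 31 members at 96 h. Neurod1 lacked one throughout. Peaks near promoters held 65%, 67.6%, 64.8% and 63.1% of the members' summed level at 0, 48, 72 and 96 h. The share in promoters thus stayed between 63.1% and 67.6%.

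No peak anywhere in the window at 0 h was called for 6 members, and all 6 had peaks at 48 and 72 h: Cdx2, Cdx1, Pdx1, Six2, Sox1 and Barx1. No member lacked a peak at 48 or 72 h. Over all 21884 genes 23.3%, 20.4% and 19.9% had no peak at 0, 48 and 72 h, and 2.4% had none at 0 h but peaks at 48 and 72 h. All 6 are among the 23 and the 30 counted as at least 2-fold higher at 48 and 72 h, which rests on the pseudocount, and no fold is given for them. Their 8 peaks of at least 500 bp at 48 h had densities from 2.1 to 6.8 CPM per kb, with a median of 2.3, and 7 of the 8 lay above the 5th percentile of the 0 h library. Most of these peaks were thus near the weakest density that was called in either library. At 96 h Cdx2, Cdx1, Pdx1 and Barx1 again had no peak, nor had Sox2 (27.1% of all genes had none at 96 h), while Six2 kept 303 bp and Sox1 56 bp of peak.

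Cdx2 and Cdx1, homeobox genes that specify the intestinal epithelium, had peaks at 48 and 72 h only. Cdx2 read 0, 32.2, 14.2 and 0 CPM at 0, 48, 72 and 96 h. One peak of 48 h (chr5:147303675-147307371) ran from 101 bp before the start of Cdx2 to 3595 bp after it with 2.7 CPM per kb, and another (chr5:147298873-147302147) spanned the end of the gene (5123 to 8397 bp after the start) with 6.8 CPM per kb. That distal peak was more than 3 times as dense as the weakest peaks of the 0 h library. It held 22.3 of the 32.2 CPM at 48 h and reached past the end of the window, while the peak at the start held 9.98 CPM. For Cdx1 the values were 0, 6.6, 9.18 and 0 CPM, with 7 peaks at 48 and 7 at 72 h. Of these, 1 of 4 bp at 48 h and 1 of 3 bp at 72 h held no counts. Pdx1, the regulator of pancreas and duodenum that lies 37.3 kb from Cdx2, read 0, 3.97, 5.1 and 0 CPM. The peak at the start of Pdx1 was 377 bp long at 48 h and 506 bp long at 72 h.

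Among the 5 NK homeobox genes, Nkx2-9, Nkx2-1 and Nkx6-1 had the largest log2 ratios at 48 and 72 h. Nkx2-9, a neural tube factor, was at 1.64, 15.9, 23.2 and 4.15 CPM at 0, 48, 72 and 96 h, with covered lengths of 603, 4791, 4662 and 484 bp. Its log2 ratio to 0 h was 2.68 at 48 h (counting interval 2.38 to 2.97) and 3.20 at 72 h (2.86 to 3.53). Nkx2-1, the thyroid and lung regulator 76.4 kb away, was at 1.64, 13, 19.3 and 6.76 CPM. Nkx6-1, a factor of beta cells and motor neuron precursors, was at 3.57, 15.7, 26 and 10.9 CPM, and Nkx2-2, also of beta cells, at 26.1, 51.9, 73.8 and 52.7 CPM. Nkx2-5, the cardiac factor, showed the smallest change of the family, with 9.3, 13.6, 11 and 6.63 CPM, and at 96 h a peak of 482 bp, inside the peak of 1224 bp called at 0 h, no longer reached within 1000 bp of a start.

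**Figure D3:**
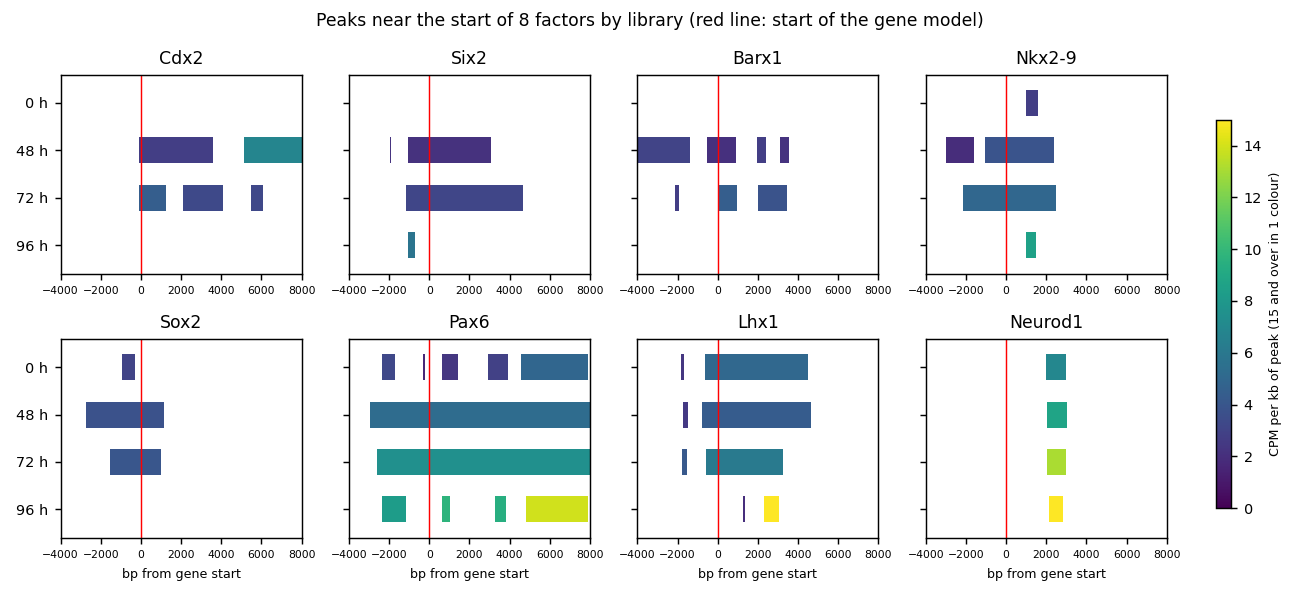
Peaks from 4000 bp before to 8000 bp after the start of 8 factors (red line) in each library, read 5′ to 3′ along the gene and coloured by CPM per kb of peak; peaks that run past an edge end there in the plot. Cdx2, Six2 and Barx1 have no bar at 0 h, Nkx2-9 and Sox2 change from 1 short bar at 0 h to longer ones at 48 and 72 h, and Lhx1 and Neurod1 have nearly the same bars at 0 and 48 h.

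The other homeobox genes also had higher values at 48 and 72 h than at 0 h, some of them with the highest at 48 h. Six2, which maintains kidney progenitors, read 0, 8.98, 18.3 and 1.74 CPM, and its peak of 5840 bp at 72 h spanned the whole gene. Barx1 of the stomach mesenchyme read 0, 14.8, 9.99 and 0 CPM. Otx2 and Otx1, factors of the anterior brain, were higher at 48 than at 72 h, Otx2 at 2.63, 17.8, 15.1 and 1.74 CPM and Otx1 at 21, 42, 39.8 and 13.9 CPM. Both stood below their 0 h level at 96 h, with a counting interval of the log2 ratio from −1.07 to 0.29 for Otx2 and from −0.91 to −0.24 for Otx1. Gsc, a gene of the gastrula organizer, was at 7.04, 18.5, 24.8 and 9.04 CPM.

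In the LIM homeobox family the members diverged. Lhx2, a factor of forebrain, eye and hair follicle, was at 35.2, 82.1, 97.8 and 53.2 CPM, and Lhx9 of the gonad and limb at 24, 45.6, 54.8 and 33.4 CPM. Isl1, which specifies motor neurons and islet cells, read 0.879, 4.16, 9.87 and 5.36 CPM. Lhx1, which acts in kidney and head formation, did not gain: its levels were 26.1, 24, 24.6 and 13.3 CPM, with a log2 ratio of −0.12 at 48 h (−0.28 to 0.05). A peak of 5156 bp already covered its promoter at 0 h, and its length at 48 h was 5421 bp.

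All 8 Pax genes, paired-box factors of eye, muscle, kidney, thyroid, skeleton and B cells, had higher values at 48 and 72 h than at 0 h. Pax6, the eye and islet regulator, was at 36.7, 95.3, 133 and 99.6 CPM over 10362, 20433, 19911 and 8654 bp of peak. Its log2 ratio to 0 h was 1.35 at 48 h (1.25 to 1.46), 1.83 at 72 h (1.71 to 1.96) and 1.42 at 96 h (1.26 to 1.58). Around its start, 5 separate peaks at 0 h, of up to 3354 bp, corresponded to 1 peak of 11692 bp at 48 h (chr2:105665951-105677642) and of 11585 bp at 72 h. At 96 h separate peaks were called there again.

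Pax1, needed for the vertebral column, showed the largest log2 ratio of the family, 2.24 at 48 h and 3.08 at 72 h, with 4.25, 23.9, 43.3 and 14.8 CPM. Pax7 of muscle satellite cells read 14.9, 41.4, 75.8 and 11.7 CPM, over 5, 21, 25 and 4 peaks that were spread along its 96467 bp. Its promoter had a peak at 48 and 72 h only. Pax9, of teeth and skeleton, was at 19.7, 44.4, 51.4 and 28.5 CPM and Pax3, of neural crest and muscle, at 19.9, 41.9, 40.8 and 22 CPM. At 48 h the changes were weaker for Pax5, the B cell factor (27.6, 39.7, 53.9 and 38.2 CPM), Pax8 of the thyroid and kidney (16.6, 21.1, 25.8 and 21.2 CPM) and Pax2 of the kidney (16.3, 19.8, 40.2 and 15.3 CPM). Pax2 thus passed the 2-fold limit at 72 h alone, and Pax5 and Pax8 at no time.

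The bHLH factors of neurons and secretory cells were all less than 2-fold higher at 48 h. Neurog2 and Atoh1, which start neuronal and sensory programs, were at 17.5, 25, 36.8 and 31.9 CPM and at 5.57, 9.98, 18.6 and 8.97 CPM. Neurod1, a factor of neurons and islets, read 6.9, 8.84, 12.7 and 12.8 CPM. These counts came from 1 peak of 993, 1010, 976 and 669 bp that began about 2 kb after its start, and no promoter peak was called in any library. The Neurod1 window overlaps the gene Cerkl, so the peak cannot be given to either gene. Mafa, the beta cell factor, was at 21.7, 23.3, 34.7 and 31.9 CPM. The bHLH-PAS genes Sim1 of the hypothalamus and Sim2, a related factor of the nervous system, contrasted with these, at 17.2, 39.8, 50.7 and 26.2 CPM and at 4.7, 30.1, 46.4 and 3.41 CPM. Peaks covered 2228 bp of Sim2 at 0 h, then 10925 and 11899 bp. At 96 h Sim2 had 385 bp and was below its first level, with a counting interval of the log2 ratio from −0.96 to 0.21.

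Of the Sox genes, Sox2, a pluripotency and neural stem cell factor, was at 2.03, 14.7, 10.2 and 0 CPM, and Sox1, its relative in the neural plate, at 0, 4.77, 6.67 and 0.469 CPM. The Sox2 window lies within the long noncoding gene Sox2ot, and the Sox1 window within Sox1ot, so that their peaks are shared with those genes. Sox17, a factor of endoderm and of endothelium, differed in course: it was at 10.5, 20, 23.3 and 25.2 CPM and did not fall at 96 h. The T-box genes Tbx5 of the heart and forelimb and Tbx15 of the limb and skin read 2.38, 9.24, 15.3 and 7.57 CPM and 7.38, 32.5, 45.4 and 17.6 CPM. Foxd3, a neural crest factor, was at 6.89, 11.7, 19.6 and 14.3 CPM. The endoderm and heart factor Gata6 stayed near its 0 h level, at 74.9, 63.9, 66.8 and 77.2 CPM.

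In CPM a partial return at 96 h was the common pattern, and 35 members were lower at 96 h than at 72 h, beside 45.7% of all measured genes (the others were Neurod1, Gata6 and Sox17). The 8 genes that were at least 2-fold above 0 h at every later time were Nkx2-1, Nkx6-1, Pax1, Pax6, Six2, Tbx5, Tbx15 and Isl1. Of these Six2 had no peak at 0 h, and its value at 96 h came from 26 counts. The share of all measured genes past the fold at every later time was not computed. Below the 0 h level at 96 h, as 44.9% of all measured genes were, stood Nkx2-5, Sim2, Pax2, Pax7, Lhx1, Otx1, Otx2 and Sox2. For Nkx2-5, Sim2, Pax2, Pax7 and Otx2 the counting interval of the ratio included no change. Per covered kb the order was another, with the median ratio to 0 h highest at 96 h, where density was higher over all peaks too, as given above. The 96 h library had the fewest counts and peaks, which covered 60.9 Mb in all beside 153.6 Mb at 0 h, and the part of this in the values was not tested.

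Levels of different genes can be compared only per length. The levels are those of whole peaks, so parts outside a window are in them. Per kb of window, Neurog2 was highest at 48 h with 5.56 CPM per kb, followed by Mafa with 4.92, Gsc with 4.5, Otx1 with 4.14 and Nkx2-9 with 4.08. The lowest were Tbx5 with 0.169 and Pax5 with 0.211, genes with long windows. The median member was at 0.347 CPM per kb of window at 0 h and 1.78 at 48 h, still below the hepatocyte transcription factors, which were at 8.48 and 6.88.

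Several members are neighbours. Nkx2-1, Nkx2-9 and Pax9 lie within 155 kb on chromosome 12, Nkx2-2 and Pax1 within 168 kb on chromosome 2, and Cdx2 and Pdx1 within 37.3 kb on chromosome 5. No peak counted for more than 1 member. The window of Pax9 also overlaps the end of Slc25a21, that of Tbx15 the end of Wars2, and many windows overlap antisense or noncoding genes. Such neighbours cannot be told apart in ATAC-Seq data.

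Related factors that are not members also had higher levels at 48 and 72 h. Of 75 factors of the same families, 62 were measured, and 29, 40 and 11 of them were at least 2-fold higher at 48, 72 and 96 h (background 6.71%, 11.8% and 5.46%), with median log2 ratios of 0.97, 1.34 and 0.50. At least 2-fold lower were 0, 0 and 5 (1.82%, 5.76% and 9.88%). Of the 75, 14, 7, 5 and 19 had no peak at 0, 48, 72 and 96 h. The 5 with the largest ratio at 48 h were the forebrain and eye factor Six3 (0, 9.52, 20.9 and 0 CPM), Nkx6-2 (0.00732, 9.08, 21.6 and 0), the hindbrain factor En1 (1.7, 19.1, 23 and 6.7), Nkx1-1 (0.63, 10, 10.4 and 0) and Nkx3-2 (0, 5.15, 10.2 and 0.469). Promoter peaks of this list numbered 56, 66, 68 and 49 of 75 at 0, 48, 72 and 96 h.

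Effector genes, which such factors serve, had smaller median ratios. For the 3 lists that follow, the shares over all measured genes were 6.71%, 11.8% and 5.46% at least 2-fold higher and 1.82%, 5.76% and 9.88% at least 2-fold lower at 48, 72 and 96 h. Of 36 effector genes of other lineages, such as insulin, cardiac myosin and neuronal markers, 23 were measured and 5, 7 and 3 were at least 2-fold higher at 48, 72 and 96 h, with 0, 1 and 3 at least 2-fold lower and median log2 ratios of 0.35, 0.55 and −0.03. Promoter peaks were called for 17, 21, 23 and 10 of the 36 at 0, 48, 72 and 96 h (47.2%, 58.3%, 63.9% and 27.8%, beside 69.1%, 73.2%, 73.6% and 65.4% of all genes). Among 23 hepatocyte transcription factors the counts were 1, 0 and 0, with 0, 3 and 4 at least 2-fold lower and medians of −0.09, −0.56 and −0.43. Of 20 Polycomb and Trithorax group genes, which encode the silencing complexes and their antagonists, 0 were at least 2-fold higher at any time and 3, 2 and 3 were lower. The hepatocyte and the Polycomb and Trithorax lists had promoter peaks for all their genes in every library. Differences between the lists were not tested, as the lists were compared in 1 library per time point.

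**Figure D4:**
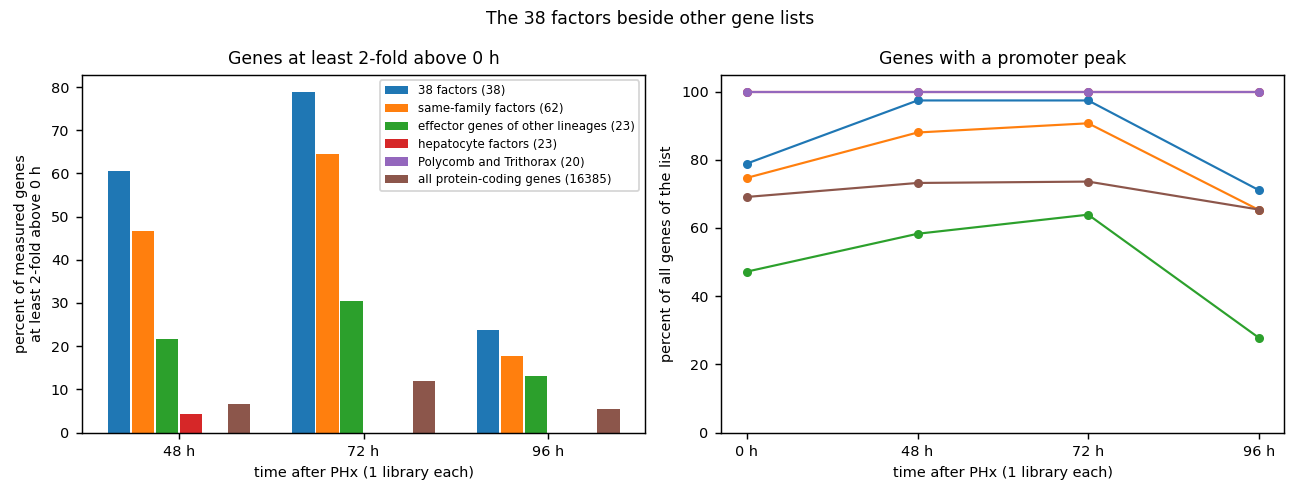
Share of measured genes at least 2-fold above 0 h (left, bars, number of measured genes in brackets) and share of all genes of a list with a promoter peak (right, points), for the 38 factors, 4 other lists and all protein-coding genes, with 1 library per time. The 38 factors and the same-family factors stand highest on the left; on the right the hepatocyte factors lie under the Polycomb and Trithorax line at 100%.

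Some marker genes of other liver cell types were also higher at 48 h. Of those measured, 1 of 10 endothelial, 2 of 5 myeloid, 2 of 8 stellate or mesenchymal, 0 of 5 cholangiocyte and 2 of 3 lymphoid markers were at least 2-fold higher then (background 6.71%). Over all genes 69.1%, 73.2%, 73.6% and 65.4% had a promoter peak at 0, 48, 72 and 96 h. Promoter peaks were called for 6, 9, 8 and 4 of 10 endothelial markers at 0, 48, 72 and 96 h, for 2, 5, 3 and 1 of 10 myeloid, 3, 7, 7 and 4 of 10 stellate or mesenchymal, 5, 7, 8 and 5 of 8 cholangiocyte and 2, 5, 3 and 1 of 10 lymphoid markers. Their summed levels ranged from 208.4 to 347.9 CPM (endothelial), 110.3 to 239.5 (myeloid), 86.57 to 185.0 (stellate or mesenchymal), 115.2 to 167.5 (cholangiocyte) and 41.81 to 129.4 CPM (lymphoid), lowest at 0 or at 96 h in each. Without any peak at 0 h were Cdh5, Clec4f, Adgre1, C1qa, Vsig4, Marco, Lyz2, Des, Dcn, Hand2, Krt19, Krt7, Cftr and 7 lymphoid markers. C1qa and Vsig4, markers of Kupffer cells, had no peak in any library. In hepatocyte-like nuclei alone (defined next) the endothelial sum was 268, 274, 336 and 208 CPM at 0, 48, 72 and 96 h and the myeloid sum 170, 234, 211 and 110 CPM. There the stellate or mesenchymal sum was 85.4, 130, 185 and 151 CPM, the cholangiocyte sum 114, 152, 166 and 168 CPM and the lymphoid sum 41, 128, 111 and 81.9 CPM. The median log2 ratio of the lymphoid markers at 48 h was 1.11, over the 3 of 10 that were measured, and 0.00 at 72 and at 96 h. The stellate or mesenchymal median was 0.51, 1.12 and 0.76 over 8 markers at 48, 72 and 96 h. The endothelial median was 0.10, 0.27 and −0.01 over 10 markers, the myeloid 0.51, 0.68 and 0.31 over 5 and the cholangiocyte 0.64, 0.95 and 0.48 over 5. The part of these cell types in the members' levels was not tested.

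Clustering without the regions within 100 kb of a member gave 8 clusters. Nuclei in clusters with a high level of hepatocyte markers, called hepatocyte-like, numbered 2500, 3629, 3931 and 3129 at 0, 48, 72 and 96 h, and in them the members' summed level was 491, 1036, 1333 and 721 CPM. Hepatocyte-low nuclei, where endothelial or myeloid markers were raised, numbered 297, 215, 287 and 82. Their members' level was 458 (412 to 507), 767 (681 to 861), 1147 (1025 to 1279) and 819 CPM (603 to 1087). The hepatocyte-like class held most of the members' counts (63284 at 48 h, against 577 in hepatocyte-low nuclei), so its sums had to lie near those of the whole libraries. Hepatocyte-low nuclei as 1 class were likewise lowest at 0 h, with intervals that overlapped at 72 and 96 h. Of their 2 clusters, the one with the highest myeloid markers read 404, 826, 995 and 1121 CPM (710 to 1681 at 96 h) and the other 514, 682, 1235 and 653 CPM. The hepatocyte-like clusters split largely by library: 1 cluster held 2491 of its nuclei at 0 h and another 3091 at 96 h, while at 48 h clusters of 2746 and 765 nuclei and at 72 h clusters of 2824 and 929 made up most of the class. Of these, the cluster of 765 and 929 nuclei was the same. A shallow cluster of 1180 nuclei at 0 h stayed unnamed and had 523 CPM (503 to 542). Its hepatocyte markers summed to 5620 CPM and its cholangiocyte markers to 134 CPM.

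**Figure D5:**
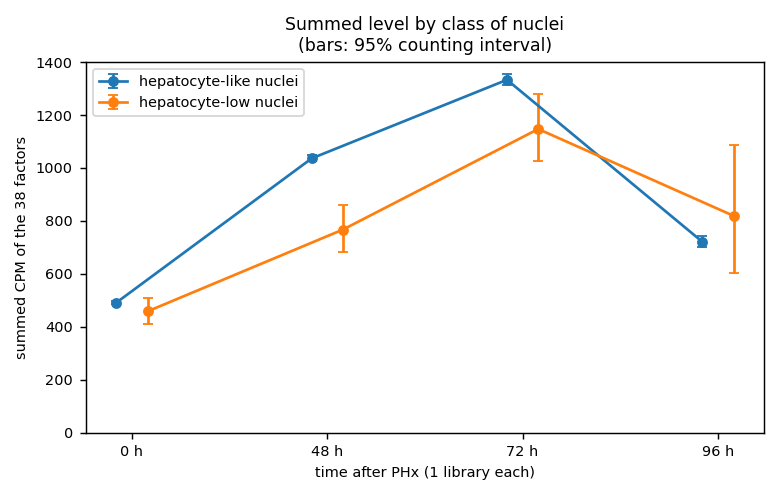
Summed level of the 38 factors (CPM) in hepatocyte-like and hepatocyte-low nuclei of each library, with 95% counting intervals; each point is the sum over the nuclei of 1 class in 1 library. Both classes are lowest at 0 h, and the interval of hepatocyte-low nuclei is wide at 96 h, where 82 nuclei remain, and overlaps that of 72 h.

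Some members, picked after their values were seen, differed between nuclei. In the hepatocyte-low cluster with the highest endothelial markers Sox17 was at 94.6 CPM at 0 h (66.8 to 130), against 10 CPM in hepatocyte-like nuclei (9.26 to 10.8), and Lhx2 at 105 CPM (75.3 to 142) against 34.4 (33 to 35.9). In hepatocyte-low nuclei as a whole, Pax9 at 0 h was at 4.31 CPM (1.04 to 11.7) against 19.8 in hepatocyte-like ones, Pax8 at 3.69 (0.761 to 10.8) against 16.5 and Pax7 at 3.08 (0.511 to 9.85) against 14.9. Cdx2 at 48 h was at 32.6 CPM in hepatocyte-like nuclei (30.6 to 34.7) and at 2.66 CPM in hepatocyte-low ones (0.0673 to 14.8, from 2 counts). Within the hepatocyte-like nuclei of 48 h, a cluster of 765 nuclei had 57.9 CPM of Cdx2 and 6.59 CPM of Pdx1, and the main cluster of 2746 nuclei 24.8 and 3.33 CPM. At 72 h the same cluster, then of 929 nuclei, had 25.6 CPM of Cdx2 and the main cluster of 2824 nuclei 9.37 CPM. The whole end of chromosome 5 beyond 135 Mb moved with these genes: its peaks outside the members were higher by 0.81 (log2) at 48 h and 0.77 at 72 h in that cluster, the rest of the chromosome by 0.05 and 0.04. The median member did not follow, at −0.00 and 0.06, and the part of the region in the Cdx2 and Pdx1 difference was not tested.

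In single nuclei the factors were spread thinly. After thinning each hepatocyte-like nucleus to 2000 counts, the mean number of members with a count was 0.958, 1.86, 2.02 and 1.08 at 0, 48, 72 and 96 h, with 8.36, 6.69, 3.72 and 1.68 before thinning. Nuclei with a count in any member made up 62.2%, 84.1%, 86.3% and 66.3% after thinning. No nucleus had counts in more than 9 members after thinning. Thinning left out 4, 185, 409 and 653 shallower nuclei. For hepatocyte-low nuclei the thinned means were 0.682, 1.02, 1.42 and 0.875, the last from 8 nuclei.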

How the data were processed

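The authors deposited, for each library, the whole-number counts of transposase cut sites per peak and barcode, made with Cell Ranger ATAC (version 1.1.0 in the file headers; mm10 in the submitters' processing notes). Peaks were called per library by the authors. Both ends of a fragment count, so exact 95% Poisson intervals were computed on counts divided by 2. Here, counts of nuclei with at least 1000 counts were summed over whole peaks that overlap a window (gene body plus 2000 bp upstream) and scaled to a total of 1000000 counts in peaks (CPM). Ratios are log2((CPM + 1)/(CPM + 1)) for genes with a mean of at least 2 CPM. With 1 library per time point no test was run, and no doublet caller. Nuclei were clustered by TF-IDF, singular value decomposition (30 components) and Leiden (resolution 0.5) on 62556 autosomal regions called in every library, with a marker limit of −1 (log2) set after the clusters were seen; a cluster above that limit with a median depth under 0.333 of its library and none of the 10 hepatocyte markers among its leading genes stayed unnamed. Promoter sequences came from RefSeq. All 38 members are named with the value of every library, along with the 5 same-family factors that changed most at 48 h. The members and lists were chosen with earlier results of these data known. Python 3.11.15, scipy 1.17.1, scikit-learn 1.9.0 and leidenalg 0.10.2 were used. Alternatives covered the depth filter, the deepest nuclei, centring, covered length, peaks of nearly equal length, promoter peaks, binarised counts, the pseudocount, the filter on low values and the class of nuclei.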

Additional observations from a re-analysis of the deposited data

How the results depend on the processing

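Of 156 alternative values, 115 were classed as the same as those given above, and no median changed sign against 0 h. That class was wide for counts. It included 17, 24 and 6 members at least 2-fold higher at 48, 72 and 96 h with binarised counts, in place of 23, 30 and 9. It also included 23 promoter peaks at 0 h, in place of 30, when a peak had to overlap a start site. Leaving out the filter on low values could change nothing, because all 38 members passed it. The order of the times did change: by length-based measures 96 h was highest rather than partly returned. All genes shared this order, with median log2 ratios of −0.14, 0.22 and 1.30 at 48, 72 and 96 h on pairs of peaks of nearly equal length. The shares of all genes past 2-fold by these measures were not computed. Divided by covered kb, the median log2 ratio was 0.28, 0.68 and 1.70 at 48, 72 and 96 h, with 0, 3 and 30 members at least 2-fold higher and 0 lower at 96 h; on pairs of peaks of nearly equal length it was 0.08, 0.56 and 1.23, with 0, 3 and 5 higher and 0 lower at 96 h, over 14, 13 and 5 members. On promoter peaks alone it was 1.44 at 48 h and 0.22 at 96 h, with 5 lower at 96 h. Binarised counts gave 0.83, 1.22 and 0.22, and the minimum of 10 CPM gave 0.96 at 48 h, with 14 higher of 29 and 0 lower at 96 h. Without the deepest 5% of nuclei, 2 members were lower at 96 h and the sum at 48 h was 1048 CPM. Promoter peaks at 96 h numbered 15 when a peak had to overlap a start site, and 15 when it needed 100 counts. Summed levels at 0, 48 and 72 h were 531.6, 1174 and 1495 CPM when scaled to counts in regions called in every library, and 476.6, 873.1 and 1068 CPM in those regions alone. At 0, 48, 72 and 96 h they were 320.4, 697.5, 860.3 and 455.6 CPM in promoter peaks and 624.3, 1121, 1367 and 773.7 CPM when binarised. The cause of these shifts was not tested, except that fewer genes enter the higher minimum and fewer peaks the restricted sums. The 96 h library was the shallowest, and the part of depth in its values was not tested. No paired analysis was possible because each time point had 1 library, and no replicate could be left out.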
